A study of Homo sapiens with 8 samples.

Results

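Heparan sulfate is taken apart inside the lysosome by a fixed series of enzymes, and the 7 genes described here encode 6 of those enzymes and the factor that activates the sulfatases among them: IDS, IDUA, SGSH, HGSNAT, NAGLU, GUSB and SUMF1. Rows were taken by gene symbol, and 6 of the 7 were in the deposited table of 15811 genes. IDUA, which encodes the enzyme that removes iduronic acid, was not in that table and is not analysed here. Total RNA of H9, a long-used human embryonic stem cell line, was sequenced in 4 wild-type (WT) libraries and in 4 libraries of EXT1-/- cells, in which CRISPR/Cas9 had been aimed at EXT1. That gene encodes a glycosyltransferase that extends the heparan sulfate chain, and the EXT1-/- cells are described as lacking this glycan. Cells of both groups were grown in E8 medium on vitronectin and then kept for 28 h in RPMI-1640 with 6 µM CHIR-99021, a GSK3 inhibitor used here to induce mesendoderm, the precursor of mesoderm and endoderm. The comparison therefore asks how transcripts of the breakdown pathway stood in induced cells described as lacking heparan sulfate. Whether these enzymes keep other substrates in the cells was not tested. Uninduced cells are not analysed here, the mutant genotype is 1 edited line, and nothing in the labels says that replicates came from separate cultures. The p-values therefore cover only library-to-library spread, which may be technical.

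The breakdown works from one end of the chain, one sugar or one sulfate at a time, and each enzyme can act only after the one before it has exposed its substrate. Sulfatases remove sulfate groups, glycosidases cut off the freed sugars, and one membrane enzyme adds an acetyl group because no lysosomal enzyme can release the bare glucosamine. Inherited loss of any of these genes blocks the whole series and stores heparan sulfate fragments in lysosomes, as in Hunter, Hurler, Sanfilippo and Sly syndromes, and loss of SUMF1 disables every sulfatase at once in multiple sulfatase deficiency.

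Many lysosomal genes carry near their start the CLEAR element, a palindrome around the E-box CACGTG to which TFEB and its relatives bind. The promoters of the gene with the largest fall here (IDS), of the sulfatase activator (SUMF1) and of a gene that did not pass the test (GUSB) are therefore shown, as the 250 bases before the RefSeq transcription start on GRCh38.p14, 5′ to 3′ on the minus strand. These 3 promoters were the only ones matched among the 6 measured genes, not a selection. They were searched for CACGTG and for the longer GTCACGTG, which contains it, on both strands, and capitals mark the longer match.
IDS, chrX:149505307-149505556: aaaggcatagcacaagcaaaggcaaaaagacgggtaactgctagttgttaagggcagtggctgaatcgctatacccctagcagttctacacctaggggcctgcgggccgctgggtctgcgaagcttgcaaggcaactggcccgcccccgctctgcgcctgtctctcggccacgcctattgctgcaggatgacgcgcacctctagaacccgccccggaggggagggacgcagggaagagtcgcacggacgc
SUMF1, chr3:4467270-4467519: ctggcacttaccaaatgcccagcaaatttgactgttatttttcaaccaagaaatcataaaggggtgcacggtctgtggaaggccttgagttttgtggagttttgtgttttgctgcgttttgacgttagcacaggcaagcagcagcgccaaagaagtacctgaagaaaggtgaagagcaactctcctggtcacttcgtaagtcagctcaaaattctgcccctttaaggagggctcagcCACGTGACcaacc
GUSB, chr7:65982214-65982463: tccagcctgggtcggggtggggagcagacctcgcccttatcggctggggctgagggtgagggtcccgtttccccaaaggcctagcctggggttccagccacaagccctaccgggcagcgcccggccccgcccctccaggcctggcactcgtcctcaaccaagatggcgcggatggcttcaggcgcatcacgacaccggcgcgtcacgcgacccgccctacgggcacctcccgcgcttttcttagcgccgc
SUMF1 held GTCACGTG on the strand opposite to the one shown, from 13 to 6 bases before the start, and with it the E-box. Neither string was in the window of IDS or GUSB. Of 35116 RefSeq promoters of this length, 6.34% held CACGTG and 2.16% GTCACGTG. A match describes the letters and is no shown binding site, and the lack of one says only that they are not in this window. Base composition differed too: G and C made up 47.6% of the SUMF1 window, 62.0% of that of IDS and 70.4% of that of GUSB, around a median of 58.0% over all promoters.

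In the cells, IDS, HGSNAT and SUMF1 transcripts were lower in the EXT1-/- libraries, with group means 16.0 to 22.5% below WT, and SGSH, NAGLU and GUSB did not pass the test. No member was higher. Levels are normalised read counts as the authors deposited them, and a difference was called at an adjusted p below 0.05 (limma on log2(value + 1), Benjamini-Hochberg over all 15811 genes). By that rule 32.0% of all genes differed between the groups and 16.8% were lower, so a count of 3 lower genes among 6 is given as a description and nothing particular to these genes is read from it. The median log2 fold change of the 6 genes was -0.13, against 0.01 for all genes. The same 3 genes were called lower with the mitochondrial library set, described next, as a term (25.6% of all genes lower) and within the low set (24.1%). In bulk RNA, fewer cells that express a gene and less RNA per cell cannot be told apart.

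A few facts on the libraries bear on these values. Normalised counts summed to between 37737058 and 40017763 per library. Mitochondrially encoded transcripts took 9.18 to 10.7% of the counts in WT replicate 1 and EXT1-/- replicates 1 and 4 and 5.30 to 5.43% in the other 5 libraries, so results are also given within these high and low sets, which the labels do not name. Transcripts of EXT1, the targeted gene, averaged 1562 ± 144 in WT and 919.8 ± 41.6 in EXT1-/- libraries (SD, n = 4 each), so its RNA was reduced and not absent (adjusted p 9.2e-05, limma). Pluripotency markers (5 of 5 in the table) summed to 150125 to 153099 in WT and 115592 to 128283 in EXT1-/- libraries, mesendoderm markers (5 of 5) to 31086 to 35294 and 11256 to 17417, and neural markers (3 of 5, all higher; PAX6 and SOX1 were not in the table) to 3006 to 3536 and 7848 to 10028. The pluripotency markers did not move together: POU5F1, NANOG and DPPA4 fell, SOX2 rose from 5922 ± 1688 to 11246 ± 2355 (SD, n = 4 each; adjusted p 0.00815, limma) and LIN28A did not pass (adjusted p 0.22, limma). Of the 5 fibroblast markers, COL1A1 and PDGFRB were in the table, with sums of 1426 to 1975 and 975 to 1265, and none of the 5 blood cell markers was. The part of these shifts in the results below was not tested.

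IDS, iduronate 2-sulfatase, removes the sulfate of iduronic acid at the chain end and so can open the series. Its gene (ENSG00000010404) spans chromosome X, 149476990 to 149521096, on the minus strand of GRCh38 in GENCODE 29. WT replicates 1 to 4 had normalised counts of 4078, 3578, 3527 and 3636, and EXT1-/- replicates 1 to 4 had 2947, 2666, 2665 and 3213. Every EXT1-/- library lay below every WT library, and within each group the libraries of the high mitochondrial set were the highest. The mean fell by 22.5%, from 3705 ± 253 to 2873 ± 263 (SD, n = 4 each). On the log2 scale that was -0.37 ± 0.08 (SE; adjusted p 0.0070, limma). The low set alone gave -0.43 and the high set alone -0.41. The authors' deposited table also marks IDS as lower, with an FDR of 0.00253. A transcript annotated on the same strand across much of IDS, AC244197.3, held 65 to 116 normalised counts in WT and 52 to 98 in EXT1-/- libraries, far below the IDS count, and did not pass (adjusted p 0.752, limma).

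SGSH, N-sulfoglucosamine sulfohydrolase, is the second sulfatase of the group and takes the sulfate from the nitrogen of glucosamine. The gene (ENSG00000181523) lies on chromosome 17, 80206716 to 80220923, minus strand. WT replicates 1 to 4 held 412, 385, 426 and 347 normalised counts and EXT1-/- replicates 416, 431, 397 and 478. The groups overlapped between 397 and 426. The log2 fold change of 0.13 had a 95% confidence interval of -0.07 to 0.34 and an adjusted p of 0.288 (limma), so the direction was not resolved at this spread. SGSH starts inside its neighbour SLC26A11, which runs the other way, so that 1225 bases of gene span are shared. SLC26A11 rose from 361.8 ± 22.7 to 467.5 ± 51.5 (SD, n = 4 each; adjusted p 0.0149, limma). The libraries are stranded per the labels' protocols, but whether the counting used the strand is not given in the sources used here, so reads from the shared stretch cannot be told apart.

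**Figure D1:**
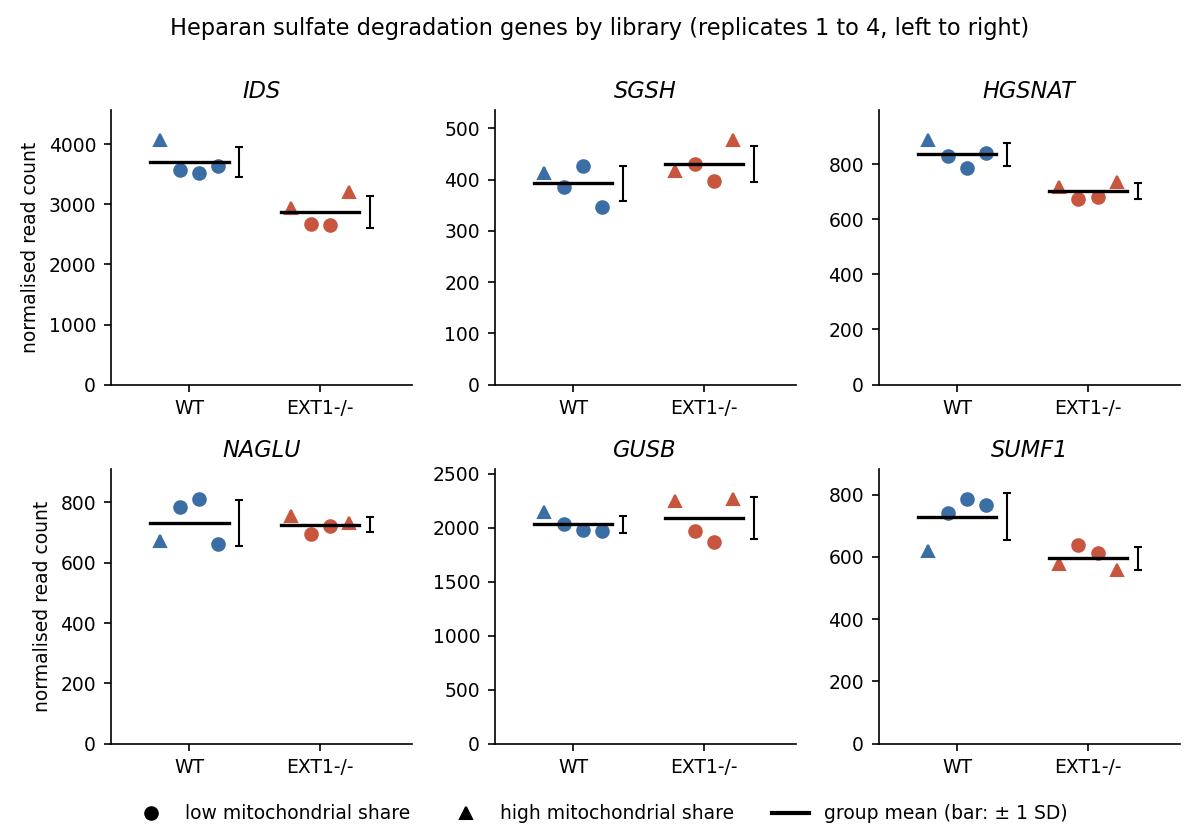
Normalised read counts (vertical axes, from 0) of the 6 genes in each of the 4 WT and 4 EXT1-/- libraries, with replicates 1 to 4 from left to right; bars mark the group mean and ± 1 SD, and triangles the libraries with the high mitochondrial share. For IDS and HGSNAT the groups do not overlap, with the lowest WT values at 3527 and 787 and the highest EXT1-/- values at 3213 and 737, while WT replicate 1 of SUMF1, at 619, sits below EXT1-/- replicate 2, at 639.

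HGSNAT encodes the membrane enzyme that acetylates the glucosamine left by SGSH, using acetyl-CoA from the cytosol. The gene (ENSG00000165102) lies on chromosome 8, 43140455 to 43202855, plus strand. The 4 WT replicates read 889, 829, 787 and 842 normalised counts, and the 4 EXT1-/- replicates 718, 675, 680 and 737. As for IDS, the groups did not overlap and the high-set libraries were the highest of their group. The mean fell by 16.0%, from 836.8 ± 42.0 to 702.5 ± 30.0 (SD, n = 4 each), which is -0.25 ± 0.06 on the log2 scale (SE; adjusted p 0.0138, limma). Taken alone, the low set gave -0.27 and the high set -0.29. The authors' deposited table gives nearly the same log2 fold change, -0.25, but an FDR of 0.0946, and does not mark the gene. Groups without overlap were found for 33.5% of all genes and for 2 of these 6.

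NAGLU, N-acetyl-alpha-glucosaminidase, cuts off the acetylated sugar that HGSNAT makes. Its gene (ENSG00000108784) occupies chromosome 17, 42536172 to 42544449, plus strand. WT replicates held 672, 784, 812 and 662 normalised counts and EXT1-/- replicates 755, 695, 721 and 733. All EXT1-/- values lay inside the WT range. The log2 fold change was -0.01, with a 95% interval of -0.19 to 0.18 (adjusted p 0.953, limma). Its sign depended on the libraries used: it was -0.08 in the low set and 0.15 in the high set, which holds a single WT library.

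GUSB, beta-glucuronidase, removes glucuronic acid and is also used in many laboratories as a reference gene for RNA measurements. The gene (ENSG00000169919) lies on chromosome 7, 65960684 to 65982314, minus strand. It held 2144, 2037, 1980 and 1968 normalised counts in WT replicates and 2244, 1974, 1872 and 2269 in EXT1-/- replicates. The EXT1-/- group spread more widely and enclosed the WT group, with its high-set libraries on top. The log2 fold change was 0.04, with a 95% interval of -0.13 to 0.21 (adjusted p 0.746, limma). In the model that holds the library set it was -0.01. GUSB has close copies elsewhere in the genome: of 5 GUSBP pseudogenes in the table, GUSBP11 rose from 510.5 ± 89.2 to 681.5 ± 56.7 (SD, n = 4 each; adjusted p 0.0324, limma) and the other 4 did not pass, so reads shared with GUSB are uncertain.

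SUMF1 is not an enzyme of the chain itself. In the endoplasmic reticulum it turns a cysteine of every newly made sulfatase, IDS and SGSH included, into formylglycine, without which they are inactive. Its gene (ENSG00000144455) spans chromosome 3, 3700814 to 4467281, minus strand. WT replicates held 619, 742, 787 and 767 normalised counts and EXT1-/- replicates 576, 639, 612 and 557. Here the high-set libraries were the lowest of each group, the reverse of IDS, and WT replicate 1 fell below 1 EXT1-/- library. The mean fell by 18.2%, from 728.8 ± 75.4 to 596.0 ± 36.6 (SD, n = 4 each), which is -0.29 ± 0.09 on the log2 scale (SE; adjusted p 0.0375, limma). With the library set as a term the log2 fold change was -0.23 (adjusted p 0.00483, limma), and the sets alone gave -0.29 (low) and -0.13 (high). The call was lost when any one of WT replicates 2, 3 and 4 or EXT1-/- replicates 1, 3 and 4 was left out (adjusted p 0.0604 to 0.104, limma), and the authors' deposited table gives an FDR of 0.0819. LRRN1 and SETMAR lie within the SUMF1 span on the other strand, and LRRN1 rose from 6743 ± 1613 to 11568 ± 1494 (SD, n = 4 each; adjusted p 0.00487, limma).

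**Figure D2:**
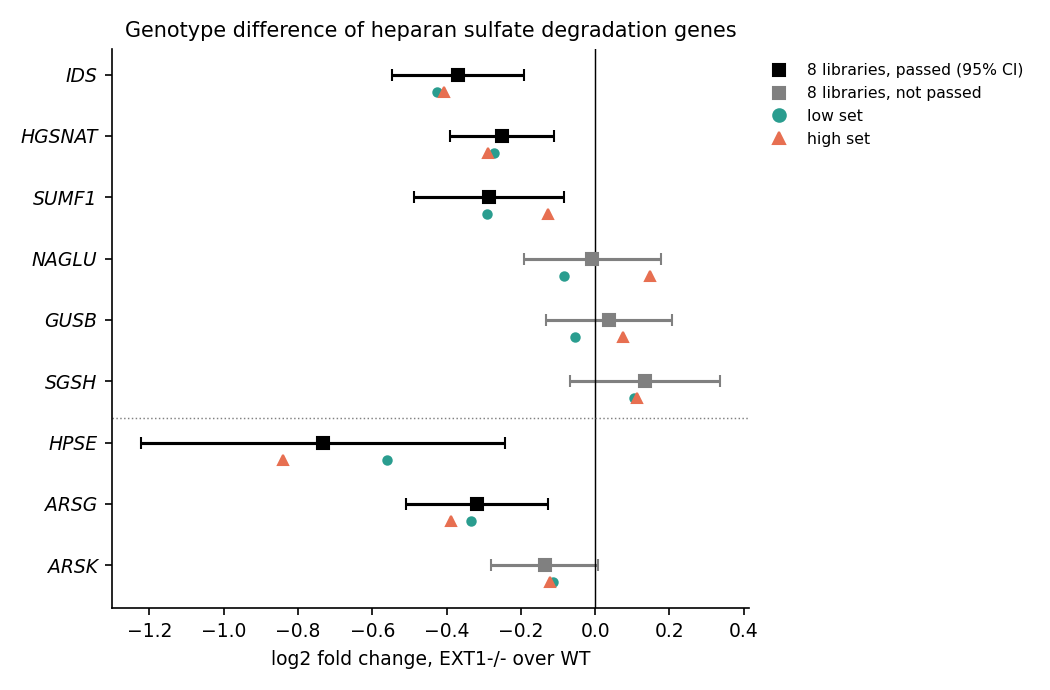
Log2 fold change (EXT1-/- over WT, horizontal axis) of the 6 genes, above the dotted line, and of 3 further heparan sulfate degradation genes, below it; squares show all 8 libraries with 95% confidence intervals, circles the low and triangles the high mitochondrial set alone. IDS, at -0.43 and -0.41, and HGSNAT, at -0.27 and -0.29, were nearly alike in both sets, whereas NAGLU and GUSB changed sign between them. The high set holds a single WT library, and its values carry no test.

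Whether the 6 genes differed from each other in their response was asked from the log2 ratio of each pair within a library, a comparison added after the values were seen. The IDS to GUSB ratio was 0.86 ± 0.05 on the log2 scale in WT and 0.46 ± 0.06 in EXT1-/- libraries (SD, n = 4 each), and its values did not overlap between groups. The HGSNAT to GUSB ratio went from -1.28 ± 0.04 to -1.57 ± 0.08 and the IDS to SGSH ratio from 3.24 ± 0.15 to 2.73 ± 0.08, also without overlap. The same held for SGSH to HGSNAT and NAGLU to SUMF1, in 5 of 15 pairs in all. Some genes recur in these pairs, and the share of such pairs over all genes is not given here. For single genes the groups did not overlap in 33.5% of all genes, so nothing particular to these 6 is read from the count. For these 5 pairs the two-sided exact permutation p was 0.0286, the smallest that 70 divisions of 8 libraries allow, and 0.0858 after Benjamini-Hochberg adjustment over the 15 pairs, so no pair passed. With only 5 pairs at that smallest value none could have passed, however large its difference. The adjusted test therefore cannot decide whether the genes differed in their response. Among the 3 genes that fell, the IDS to HGSNAT ratio was 2.14 ± 0.04 and 2.03 ± 0.07 (exact permutation p = 0.0857, adjusted 0.143), and the IDS to SUMF1 ratio 2.35 ± 0.25 and 2.26 ± 0.22 (exact permutation p = 0.629, adjusted 0.726).

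Per kilobase of exon, the order of levels in WT cells was GUSB, IDS, NAGLU, SUMF1, HGSNAT and SGSH. GUSB held 493 to 537 normalised counts per kb, IDS 380 to 439 and NAGLU 220 to 270, each range apart from the next. SUMF1, at 89.0 to 113, and HGSNAT, at 88.0 to 99.4, overlapped, and SGSH was the lowest at 51.7 to 63.5. The order was the same in EXT1-/- cells, where IDS held 287 to 346, SUMF1 80.1 to 91.9, HGSNAT 75.5 to 82.4 and SGSH 59.1 to 71.2. Lengths are the union of all annotated exons, so genes with long unused exons are understated.

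**Figure D3:**
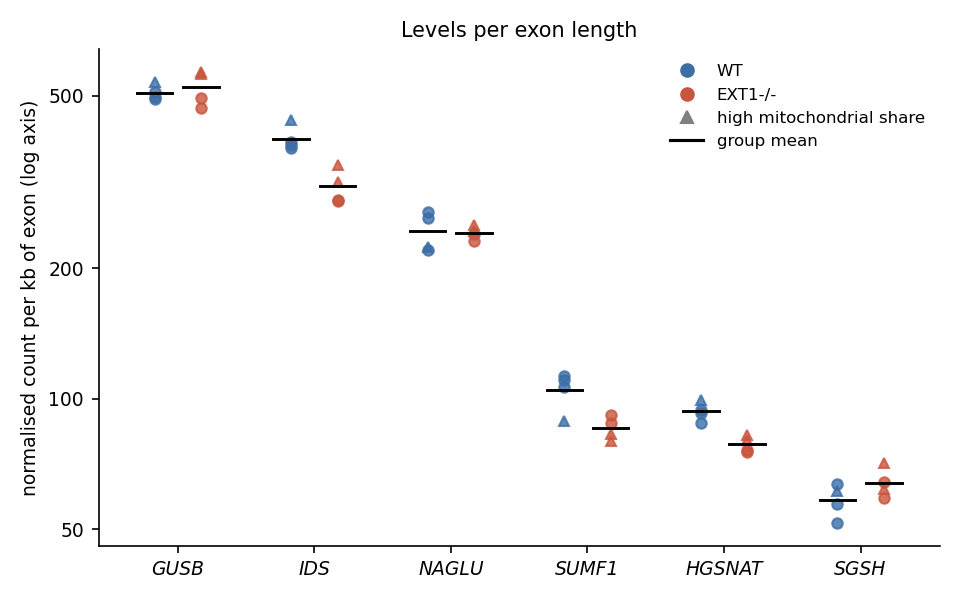
Normalised read count per kb of annotated exon (vertical axis, log scale) of the 6 genes in each WT (blue) and EXT1-/- (red) library, with bars at the group means and triangles for the high mitochondrial set. The order of the genes is shared by both groups, GUSB being highest (493 to 537 in WT) and SGSH lowest (51.7 to 63.5).

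Of 3 further enzymes that cut or desulfate heparan sulfate, 2 were lower, 1 did not pass and none was higher (median -0.32), beside 16.8% of all genes lower. SULF1 and SULF2, which desulfate heparan sulfate outside the cell, are not among these 3 but in the sulfatase list below. Their log2 fold changes were -1.60 and -0.57 (adjusted p 0.000806 and 0.038, limma). HPSE, heparanase, which cuts the chain internally before the stepwise series begins, held 45, 47, 55 and 46 normalised counts in WT and 32, 33, 33 and 19 in EXT1-/- libraries, and fell by 0.73 ± 0.22 (SE) on the log2 scale (adjusted p 0.0303, limma). These low counts did not overlap. ARSG, the sulfatase of the 3-O position of glucosamine, fell by 0.32 ± 0.08 (adjusted p 0.0200, limma), from 351.8 ± 25.5 to 282.0 ± 21.5 (SD, n = 4 each). Both calls depended on single libraries: that of HPSE was lost without WT replicate 2, 3 or 4 (adjusted p 0.0710, 0.0850 and 0.0616, limma), and that of ARSG without WT replicate 2 (0.0576) or EXT1-/- replicate 2 (0.0522). The authors' deposited table marks neither, with FDRs of 0.133 for HPSE and 0.139 for ARSG. ARSK, which removes sulfate from glucuronic acid, had -0.14 and an adjusted p of 0.137 (limma).

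All 9 measured genes of a list of further SUMF1-dependent sulfatases and SUMF2 passed the test, 6 lower and 3 higher (median -0.50), where 32.0% of all genes passed. With single libraries left out, 5 to 6 were lower and 2 to 3 higher. SUMF2, a paralog of SUMF1 that does not make formylglycine, held 2370, 2425, 2513 and 2467 normalised counts in WT and 1846, 1662, 1745 and 1670 in EXT1-/- libraries. It fell by 0.50 ± 0.05 on the log2 scale (SE; adjusted p 0.000165, limma), with -0.54 in the low and -0.43 in the high set. ARSD read 413 to 460 in WT and 182 to 243 in EXT1-/- libraries (adjusted p 8.01e-05, limma), and ARSA, the sulfatase of the sphingolipid sulfatide, rose from 179.2 ± 19.2 to 359.5 ± 53.3 (SD, n = 4 each; adjusted p 0.00036, limma). SUMF2 apart, the sulfatases of this list moved in both directions.

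Among 7 enzymes of other glycosaminoglycans 2 were lower and 1 was higher (median 0.14), against 32.0% of all genes called in either direction. The lower ones were HEXA, a hexosaminidase subunit, which fell by 0.29 ± 0.06 on the log2 scale (SE), and the beta-galactosidase GLB1, by 0.36 ± 0.06 (adjusted p 0.00861 and 0.00263, limma). GALNS, the sulfatase of keratan and chondroitin sulfate, rose from 351.0 ± 57.7 to 527.0 ± 90.8 (SD, n = 4 each; adjusted p 0.0174, limma), a call lost without WT replicate 2 (0.0540) or EXT1-/- replicate 1 (0.0505). Of 28 other lysosomal hydrolases and activators, 9 were lower, 1 was higher and 18 were not called (median -0.11). The share called in either direction was near the 32.0% of all genes. By direction, 16.8% of all genes were lower and 15.2% higher. The acid lipase LIPA fell from 855.8 ± 71.8 to 377.2 ± 32.3, the protease CTSC from 10687 ± 226 to 7672 ± 203 and the sialidase NEU1 from 2262 ± 46.3 to 1699 ± 75.4 (SD, n = 4 each).

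Of 26 membrane proteins and proton pump subunits, 4 were higher, 1 was lower and 21 were not called (median 0.03), beside 15.2% of all genes higher and 16.8% lower. A set term in the model gave 8 higher and 6 lower, where 51.8% of all genes were called. The chloride transporter CLCN7 rose by 0.42 ± 0.09 on the log2 scale (SE), the cystine transporter CTNS by 0.66 ± 0.10 and the pump subunit ATP6V0D1 by 0.38 ± 0.06. The delivery list holds the enzymes that tag lysosomal proteins with mannose 6-phosphate, the receptors of that tag and other sorting receptors. In it, 5 of 7 genes did not pass (median 0.02), where 32.0% of all genes were called in either direction. The receptor IGF2R rose from 7078 ± 138 to 7864 ± 304, and SCARB2, a receptor for another lysosomal enzyme, fell from 4623 ± 243 to 4028 ± 197 (SD, n = 4 each; adjusted p 0.0393 and 0.0320, limma). Both calls were lost without WT replicate 2, 3 or 4, among others, and the authors' deposited table marks neither (FDR 0.279 and 0.117).

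Among the factors that bind the CLEAR element, TFE3 was measured. TFEB and MITF were not in the deposited table and are not analysed here. TFE3 held 2044, 1471, 1374 and 1316 normalised counts in WT and 1812, 1413, 1462 and 1791 in EXT1-/- libraries, with the high-set libraries on top in both groups, and did not pass (log2 fold change 0.08, adjusted p 0.734, limma). It was -0.03 under a set term, -0.18 in the high set and 0.22 without WT replicate 1. RRAGD, a Rag GTPase that controls these factors at the lysosome, fell from 447.0 ± 43.8 to 246.0 ± 22.7 (SD, n = 4 each; adjusted p 0.000259, limma). It was the 1 of 7 genes in its list that passed, where 32.0% of all genes passed.

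**Figure D4:**
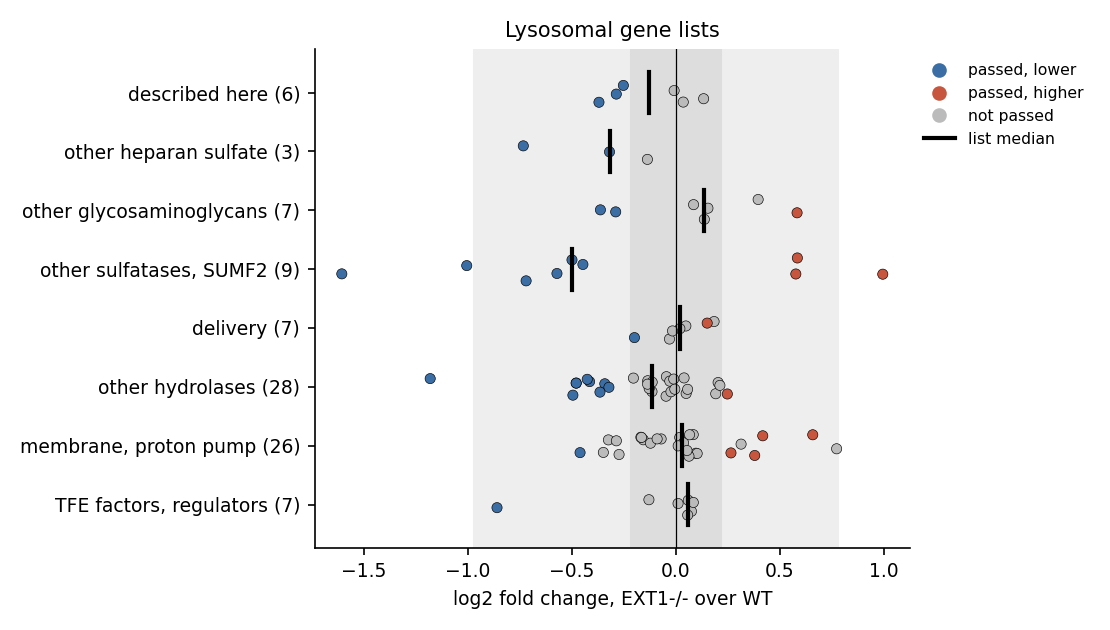
Log2 fold change (EXT1-/- over WT, horizontal axis) of each measured gene in 8 lysosomal lists, with the number of genes in brackets and a black bar at the list median; light and dark grey bands hold the range from -0.97 to 0.78 (5th to 95th percentile) and from -0.21 to 0.22 (quartiles) of all genes tested. The genes described here, with a median of -0.13, lie between -0.37 and 0.13, inside the light band.

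Over the 8 libraries the genes whose log2 values most resembled each member were picked by Pearson's r among 12370 genes with a mean of at least 100. PLTP and NBDY were closest to IDS (both r = 0.99), ANKRD18A and TEX264 to HGSNAT (both 0.99), and PEX7 and AVEN to SUMF1 (both 0.99). LAMA5 and PLPP7 were closest to SGSH (0.98 and 0.97), DTX1 and MARC1 to GUSB (0.97 and 0.97), and DPM3 and WASH2P to NAGLU (0.95 and 0.90). All genes share the same libraries, genotypes and sets, so these values are given only as a description. Of the 12370 genes, 609 had an r above 0.9 with IDS, 650 with HGSNAT and 810 with SUMF1. For GUSB the number was 197, for SGSH 133 and for NAGLU 2. Why these numbers differ was not tested.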

How the data were processed

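Normalised read counts were analysed for 4 WT and 4 EXT1-/- libraries grouped by their titles. The submitters' processing notes name STAR, RSEM, edgeR and GRCh38.p10, without versions. The authors deposited 1 table with a normalised signal per library in whole numbers; its effective sizes (trimmed mean of M values, own implementation) were 38891440 to 38902932, so these are not raw counts. Per the file headers the authors also computed a log2 fold change and log2 CPM per gene from their edgeR comparison. A likelihood ratio score per gene was deposited by the authors from that comparison, per the file headers. The p-value and FDR columns were computed by the authors in the same comparison, per the file headers. It held 0 columns of other samples. The second-highest value of every gene was at least 0.977 CPM, so low genes had been left out.

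Values were fitted as log2(value + 1) with limma 3.58.1 in R 4.3.3 (intensity trend, genotype as the only term, 15811 genes, threshold 0.05), a script tested on simulated data. No count model was fitted, since such models need raw counts. Fold changes on this scale understate low genes. Spans and exon lengths came from GENCODE 29 and promoters from RefSeq. Further tools were matplotlib 3.10.9, scipy 1.17.1, pandas 2.3.3, numpy 2.4.6 and Python 3.11.15. Library sets were split where the mitochondrial shares lay farthest apart. Members and lists were chosen with earlier results of these data known, and some lysosomal genes are not reported here. Genes named were all members, the list of other heparan sulfate enzymes, up to 3 genes with the smallest adjusted p of each other list, TFE3 and SUMF2, and the 2 genes most like each member. Overlapping genes, copies, SULF1 and SULF2 were added after the data were seen. Alternatives were other pseudocounts, filters, scalings, no trend, a replicate block, the library set as a term or alone, and each library left out.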

Additional observations from a re-analysis of the deposited data

Results flagged for a closer look

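In 100 groups of 4 libraries of the named genes and markers, 9 held a library that stood apart from the other 3 by more than Dixon's 95% limit, and chance alone marks about 1 in 20 such groups; none of these was in the 6 genes described. HPSE was 19 in EXT1-/- replicate 4, against 32 to 33 in the others. ARSK was 611 in EXT1-/- replicate 2. HEXA was 2780 in WT replicate 1, the WT library of the high mitochondrial share and the lowest of its group. CLCN7 was 1475 in EXT1-/- replicate 4, the highest of its group. EXT1 was 1776, LRRN1 9130 and the pluripotency marker NANOG 4018 in WT replicate 1, each the highest of its group. The mesendoderm marker T was 7319 in WT replicate 3 and 4932 in EXT1-/- replicate 4, also the highest values. These are normalised read counts.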

How the results depend on the processing

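IDS and HGSNAT stayed lower and called, and SGSH uncalled, under all 18 alternatives with a test, with log2 fold changes of -0.43 to -0.32, -0.28 to -0.22 and 0.08 to 0.17. SUMF1 stayed lower and was called in 12 of 18; without single libraries it was -0.36 to -0.25 and was called in 2 of 8, and within the high set, without a test, it was -0.13. NAGLU turned to 0.03, 0.04 and 0.01 without WT replicate 2, WT replicate 3 or EXT1-/- replicate 2 (-0.0542 to 0.0439 over single libraries left out) and was 0.15 within the high set. GUSB turned to -0.008 with the set as a term, -0.0533 in the low set and -0.005 without EXT1-/- replicate 4 (0.0875 at most with a library left out). TFE3 turned to -0.0311 with the set as a term and to -0.1821 in the high set, and was 0.0041 to 0.2157 without single libraries, highest without WT replicate 1. No cause of these was tested.

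Same-numbered libraries showed no steady pairing: the correlations of their deviations from the group means were 0.78, 0.44, 0.26 and -0.65 for replicates 1 to 4. WT replicate 1 also correlated with EXT1-/- replicate 4 (0.67), and both are high-set libraries. These values therefore cannot tell pairing by number from the library sets. With a replicate block the log2 fold changes were unchanged and the adjusted p was 0.0090 for IDS, 0.0243 for HGSNAT and 0.0413 for SUMF1 (limma); the delivery list then had 0 higher genes, as with upper quartile factors or without the trend. Of the other heparan sulfate enzymes 1 was lower with the 1 CPM filter, which removes HPSE, and 0 to 2 were lower without single libraries. With the set term, and likewise in the low set, 3 other hydrolases were higher and 13 lower, 8 membrane genes higher and 6 lower, and 1 regulator higher, where 51.8% and 45.0% of all genes were called. Without single libraries, other glycosaminoglycan enzymes had 0 to 1 higher, the delivery list 0 to 1 higher and 0 to 1 lower, hydrolases 1 to 3 higher, and membrane genes 0 to 4 lower. Pairs without overlap numbered 5 to 8 of 15 without single libraries and 11 within the low set. Groups that small, of 3 and 2 libraries, separate more easily, and the spread between sets is absent there. What each contributed was not tested. With the set as a term 51.8% of all genes were called, against 32.0% without it, and the cause of that was not tested either.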
